A study of Homo sapiens with 8 samples.

Results

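TXNIP, SAT1, CLU and SERPINI1 are 4 genes that inhibitors of BET proteins have often raised in other cells, and the binding of GATA2 around them was followed here. Their GATA2 regions were chosen by position. Every peak with its summit within 100 kb of the RefSeq span of one of the genes was taken, and overlapping peaks of the 4 peak lists were merged. All 4 genes had a region, as had 77.5% of protein-coding genes. This gave 36 peak lines in 15 regions, out of 36122 regions in the whole series. The genes themselves were chosen for their values in these lists, because none of them had kept, within a shorter window of 50 kb, a region common to both JQ1 lists. Presence with and without JQ1 is therefore a description below, and no test was run on it. No RNA was measured in this series, so whether JQ1 raised the 4 genes was not analysed here.

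The 2 groups with peak lists were both VCaP cells, an established human cell line of castrate-resistant prostate cancer, and all were kept without steroids for 72 h. JQ1 cells received 1 µM JQ1 for the last 24 h and gave 2 GATA2 precipitates. Untreated cells, labelled non-treated and given DMSO according to the growth protocol, gave another 2. A further 4 samples were input chromatin, for which no separate list was used here. Whether replicates came from separate cultures is not stated, so their spread may be technical.

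GATA2 is a zinc-finger transcription factor that binds the letters GATA in DNA, and in prostate cells it works with the androgen receptor at distant enhancers. BET proteins read acetylated histones and help release paused RNA polymerase, and JQ1 occupies their acetyl-lysine pocket. TXNIP codes for an arrestin-domain protein that binds thioredoxin and lowers glucose uptake. SAT1 codes for the acetyltransferase that starts the breakdown of polyamines, which prostate epithelium makes in large amounts. CLU codes for clusterin, a secreted chaperone, and SERPINI1 for neuroserpin, a secreted inhibitor of tissue plasminogen activator.

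The 2 replicates differed more than the 2 treatments in the number of peaks. JQ1 replicate 1 held 4974 peak lines and JQ1 replicate 2 held 32404, against 6902 in untreated replicate 1 and 27373 in untreated replicate 2. The total read number of a library is not in the lists, but the reads over each summit could be recovered from them. The median peak was covered by 20 and 24 reads in the JQ1 lists and by 22 and 37 reads in the untreated lists. The lists are not scaled to each other, so a read number or fold describes a peak within its own list. Results near the 4 genes are given per list for this reason, and values without either replicate are given with the dependence on processing.

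Of the 15 regions, 2 had a peak in JQ1 replicate 1 and 14 in JQ1 replicate 2, against 7 in untreated replicate 1 and 11 in untreated replicate 2. The same lists held 13.4% and 85.2% of all regions with JQ1, and 18.6% and 72.6% of all regions without it. In the JQ1 lists the regions near the 4 genes thus stood close to the shares of all regions. Few were in the short list of replicate 1 and most in the long list of replicate 2. In untreated replicate 1 their share was higher, at 7 of 15 against 18.6% of all regions. The genes were chosen for their values in these lists, so nothing is read from closeness or difference. Present in both lists of a group, here called recurrent, were 2 regions with JQ1 (13.1% of all regions) and 7 without (17.6% of all). Both regions of JQ1 replicate 1 lay near SERPINI1. TXNIP, CLU and SAT1 had no peak in that list within 100 kb. Of the 15 regions, 5 were present in every list except JQ1 replicate 1, a pattern held by 8% of all regions. A further 4 were in JQ1 replicate 2 alone (25.9% of all regions), 3 in both replicate 2 lists alone (38%), 2 in all 4 lists (8.96%), and 1 in untreated replicate 2 alone (13.3%).

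**Figure D1:**
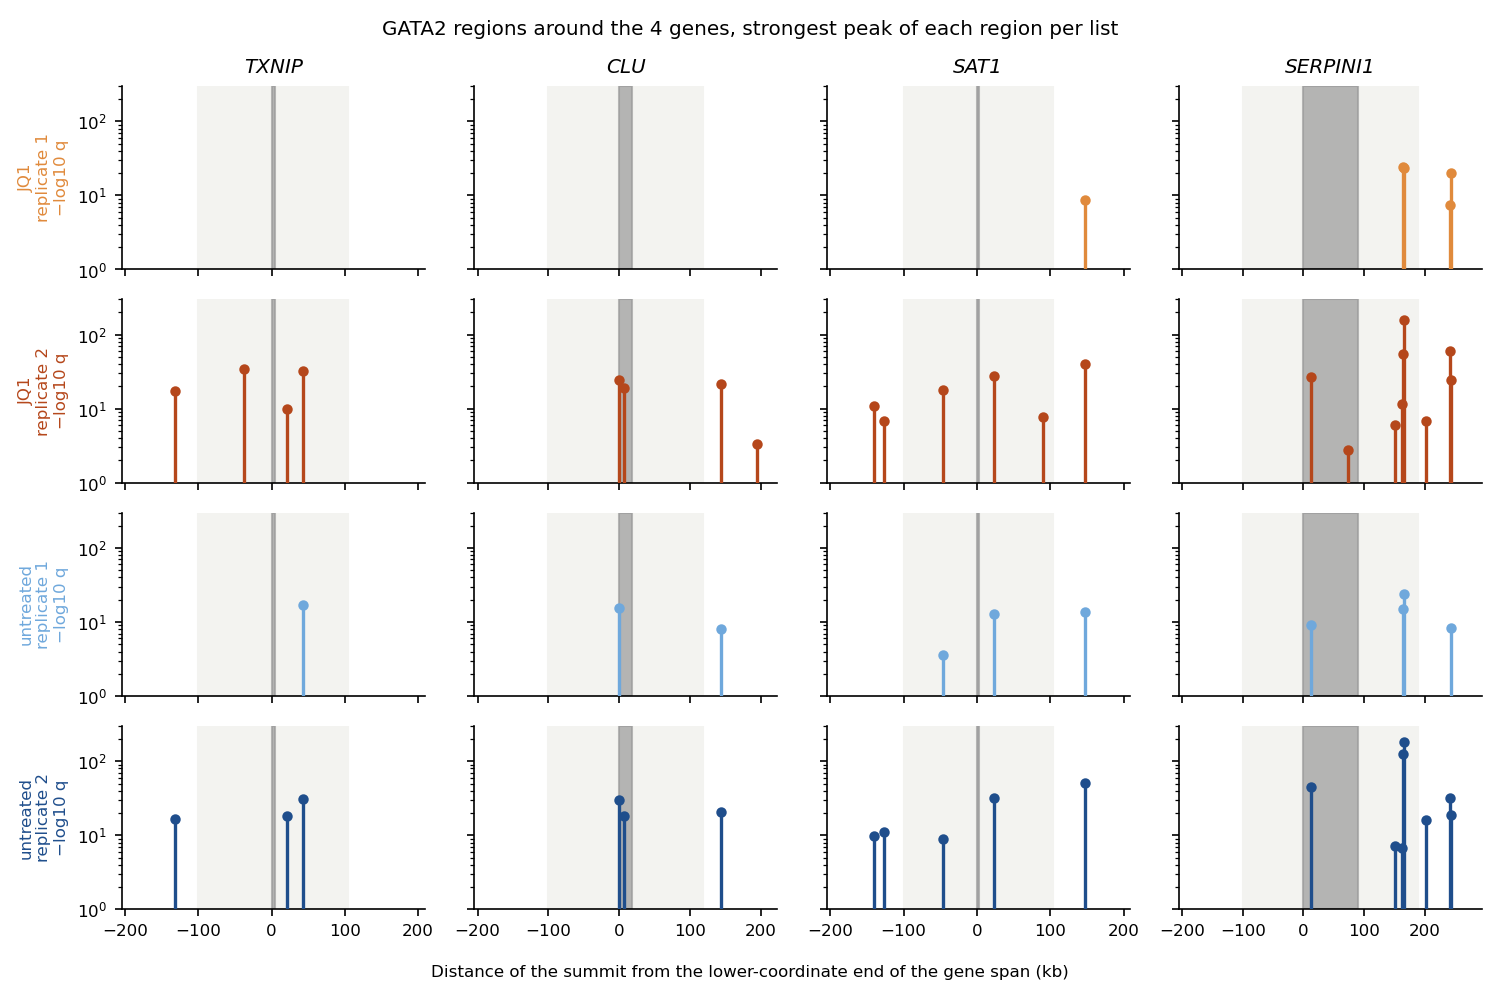
GATA2 regions around TXNIP, CLU, SAT1 and SERPINI1 in each of the 4 peak lists, with JQ1 above untreated. The horizontal axis is the distance of the strongest summit from the lower-coordinate end of the gene span in kb and the vertical axis the deposited −log10 q on a log scale; dark bands are gene spans and pale bands reach 100 kb beyond them. The row of JQ1 replicate 1 is empty around TXNIP and CLU and holds a pair of close regions inside the pale band only at SERPINI1.

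None of the 15 regions overlapped a RefSeq promoter window, taken from 250 bases before to 50 bases after a transcription start. Of all 36122 regions, 0.736% overlapped one, so that none of 15 is near the share of all regions. A window was found for 3 of the 4 genes. The nearest summit was 16.5 kb from the start site of TXNIP, 23.6 kb from that of SAT1 and 12.8 kb from that of SERPINI1. The sequences are shown because these are the start sites that carried no GATA2 peak in any list. They come from RefSeq (GRCh38.p14) and run 5′ to 3′ on the strand of the gene, and capitals mark the letters GATA or, for the other strand, TATC.
TXNIP, chr1:145996530-145996829, minus strand: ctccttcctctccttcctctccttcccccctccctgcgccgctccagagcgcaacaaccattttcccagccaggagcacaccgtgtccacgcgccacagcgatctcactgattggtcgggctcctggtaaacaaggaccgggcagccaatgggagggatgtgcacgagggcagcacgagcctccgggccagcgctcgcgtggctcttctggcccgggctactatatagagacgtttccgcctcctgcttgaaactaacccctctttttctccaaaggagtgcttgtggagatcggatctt
SAT1, chrX:23782923-23783222, plus strand: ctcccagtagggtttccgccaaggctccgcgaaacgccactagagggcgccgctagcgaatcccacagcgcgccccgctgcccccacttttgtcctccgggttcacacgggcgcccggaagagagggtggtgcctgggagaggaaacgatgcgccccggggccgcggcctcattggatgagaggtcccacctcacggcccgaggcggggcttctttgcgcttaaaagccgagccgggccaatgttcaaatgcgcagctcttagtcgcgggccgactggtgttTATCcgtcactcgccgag
SERPINI1, chr3:167735471-167735770, plus strand: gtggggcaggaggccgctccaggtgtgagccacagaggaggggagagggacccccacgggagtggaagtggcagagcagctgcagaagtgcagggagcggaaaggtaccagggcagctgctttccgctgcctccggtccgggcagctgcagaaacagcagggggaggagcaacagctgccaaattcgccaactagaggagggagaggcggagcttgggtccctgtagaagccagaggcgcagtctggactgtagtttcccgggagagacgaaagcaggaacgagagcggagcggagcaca
The windows of TXNIP and SERPINI1 held no GATA or TATC, and that of SAT1 held a single TATC starting at base 283. A second TXNIP window, for a start site further inside the gene, held none either. Of all windows, 49.7% held at least 1 of these 4-letter words. The 6-letter words made of A or T, then GATA, then A or G, 4 words that each contain the shorter one, were searched on both strands and were in none of these windows and in 25% of all windows. A match or its absence describes these letters only.

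TXNIP (NCBI gene 10628, chromosome 1, 145992435 to 145996579 in hg38) had 3 regions, of which 1 was in both untreated lists. That region, at 146035700 to 146035977, lies 39.3 kb upstream of the TXNIP start site. It overlaps the tRNA gene TRE-CTC1-1, whose annotated end is 82 to 100 bases from the summits. In JQ1 replicate 2 it had a −log10 q of 31.9, a fold enrichment of 10.2 and 47 reads over the summit (exact 95% Poisson interval 34.5 to 62.5). In untreated replicate 1 it had a −log10 q of 16.8 and 26 reads (17.0 to 38.1), and in untreated replicate 2 a −log10 q of 31.2 and 64 reads (49.3 to 81.7). JQ1 replicate 1 had no peak there. Within its list this region stood at the top 19.7% in JQ1 replicate 2, the top 25.6% in untreated replicate 1 and the top 24.1% in untreated replicate 2. These 3 summits lay within 18 bases of each other.

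The other TXNIP regions were confined to replicate 2. At 146012809 to 146013222, 16.5 kb upstream of the start site and 4.37 kb from HJV, the haemojuvelin gene of iron regulation, JQ1 replicate 2 had a −log10 q of 10.03 and 19 reads. Untreated replicate 2 had a −log10 q of 18 and 34 reads at the same place. A region inside the neighbouring gene LIX1L, 37.4 kb from the TXNIP span at 145954891 to 145955315, was in JQ1 replicate 2 alone. It was the strongest TXNIP region of that list, with a −log10 q of 33.9 and 48 reads, at the top 18.4%. No other list had a peak there.

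SAT1 (NCBI gene 6303, chromosome X, 23783173 to 23786210) had 3 regions, of which 2 were in both untreated lists. The stronger, at 23806657 to 23806874, lay 20.6 kb beyond the end of the gene in no annotated gene. Its −log10 q was 27.9 in JQ1 replicate 2, with 39 reads (27.7 to 53.3). In the untreated lists it was 13.0 with 24 reads (15.4 to 35.7) in replicate 1 and 31.9 with 56 reads (42.3 to 72.7) in replicate 2. Its rank was close in the 2 long lists, at the top 23.04% in JQ1 replicate 2 and the top 23.6% in untreated replicate 2. All summits of this region fell within 8 bases.

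The second SAT1 region, 46.8 kb upstream of the start site, lay inside ACOT9, an acyl-CoA thioesterase gene, at 23736186 to 23736493. JQ1 replicate 2 gave it a −log10 q of 17.7 and 24 reads, at the top 36.2% of the list. Untreated replicate 1 gave 3.61 and 10 reads, at the top 90.4%, and untreated replicate 2 gave 8.83 and 23 reads, at the top 65.9%. It was thus among the weaker peaks of both untreated lists. This was also the region in both untreated lists that lay near PRDX4, a peroxiredoxin gene on the other side of ACOT9. The last SAT1 region, inside APOO at 23873764 to 23873947 and 87.6 kb from the SAT1 span, was in JQ1 replicate 2 alone with a −log10 q of 7.84 and 16 reads.

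CLU (NCBI gene 1191, chromosome 8, 27596917 to 27614700) had 2 regions, 1 just outside the gene span and 1 inside it. The one at 27595875 to 27596230 lay 0.835 kb outside the lower-coordinate end of CLU and inside the long non-coding RNA gene LOC124901919. JQ1 replicate 2 had a −log10 q of 24.5 and 36 reads (25.2 to 49.8) there. Untreated replicate 1 had 15.5 and 23 reads (14.6 to 34.5), and untreated replicate 2 had 29.7 and 55 reads (41.4 to 71.6). Its rank was alike in these lists, at the top 26.5% with JQ1 and at the top 28.1% and 25.5% without.

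Inside CLU, at 27603242 to 27603624, a region was present in both replicate 2 lists. Its −log10 q was 18.9 in JQ1 replicate 2, with 25 reads, and 18.5 in untreated replicate 2, with 38 reads. The background was 1.56 reads in JQ1 replicate 2 and 2.66 reads in untreated replicate 2. The former is the lowest value of any peak in its list, and the SAT1 region inside ACOT9 had it too. Neither replicate 1 list had a peak there.

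SERPINI1 (NCBI gene 5274, chromosome 3, 167735721 to 167825569) had 7 regions, more than 88.5% of all protein-coding genes. The others had 3 regions each at TXNIP and SAT1 and 2 at CLU, against a median of 2 over 20037 protein-coding genes. The span of SERPINI1 is 89.8 kb long, against 17.8 kb for CLU, 4.14 kb for TXNIP and 3.04 kb for SAT1. The SERPINI1 regions outside the span lay 61.4 to 75.7 kb beyond its end. The part of span length in the number of regions was not tested. Of the SERPINI1 regions, 3 were in both untreated lists, and 2 of those in all 4 lists.

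The 2 regions in all 4 lists were the only ones of JQ1 replicate 1, and the farther of them was the strongest by q near any of the 4 genes in each of the other 3 lists. Both lay beyond the end of SERPINI1 inside LRRC77P, a transcribed pseudogene, at 167899260 to 167899915 and 167900910 to 167901509. The farther one, 75.7 kb from SERPINI1, had −log10 q values of 23.4 and 157.3 with JQ1 and of 23.6 and 179.6 without (replicate 1 and replicate 2). Its summit was covered by 36 reads (25.2 to 49.8) and 119 reads (98.6 to 142) with JQ1, and by 38 reads (26.9 to 52.2) and 191 reads (165 to 220) without. It ranked in the top 9.64% and 0.608% of peaks with JQ1, and in the top 15.4% and 0.338% without. The read numbers of replicate 2 stand beside medians over all its peaks of 24 reads with JQ1 and 37 without, so they were not compared between treatments.

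The nearer of the pair, 74.0 kb beyond the span, was ranked in opposite order by the 2 replicates, higher with JQ1 in replicate 1 and lower with JQ1 in replicate 2. Its −log10 q values were 24.6 and 55.4 with JQ1, against 14.9 and 123.6 without. It ranked in the top 8.69% and 9.17% with JQ1, against the top 29.8% and 1.99% without. The reads over its summit were 33 (22.7 to 46.3) and 67 (51.9 to 85.1) with JQ1, against 32 (21.9 to 45.2) and 132 (110 to 157) without. In replicate 1 the read numbers were thus nearly equal while the folds, 11.5 with JQ1 and 6.67 without, were not. The local background there was 1.96 reads with JQ1 and 3.94 reads without in replicate 1, and 3.70 reads with JQ1 and 1.99 reads without in replicate 2. The fold is reads over background with 1 added to each, so this background enters it directly. With near equal reads in replicate 1, the folds there differ through the background. Why the background differed between the lists was not tested. JQ1 replicate 1 was the only list with the nearer region ahead of the farther one by q.

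**Figure D2:**
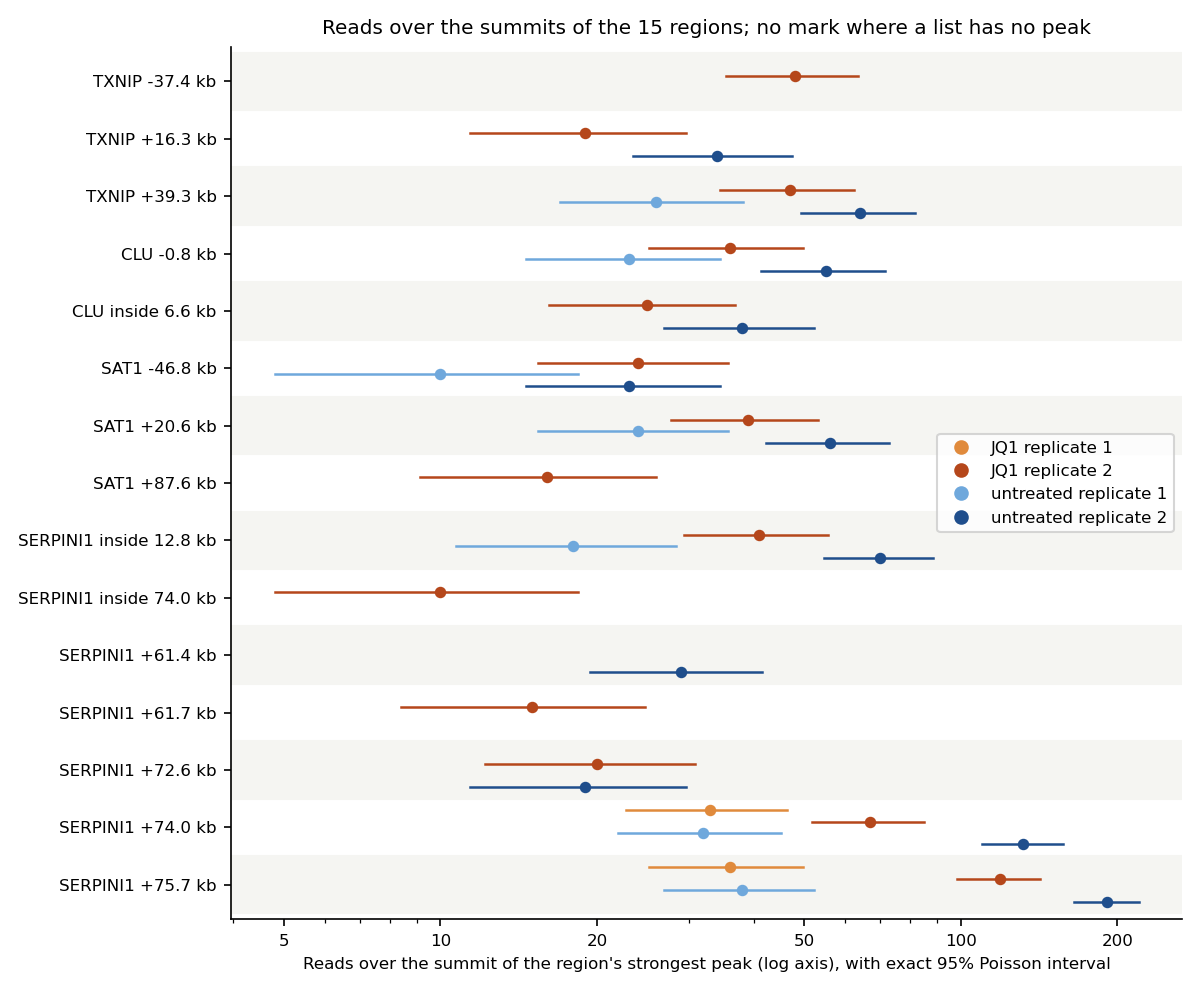
Reads over the summit of the strongest peak of each region, on a log axis, with exact 95% Poisson intervals that cover counting error only. Rows are named by the distance from the gene span in kb, or by the distance from its lower-coordinate end for regions inside the gene; colours are the 4 lists, and no mark means no peak. The pair of SERPINI1 regions at 74.0 and 75.7 kb has marks in all 4 lists, and its replicate 2 marks reach from 67 to 191 reads.

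Inside SERPINI1, 12.8 kb after its start site at 167748398 to 167748657, a region was present in every list except JQ1 replicate 1. JQ1 replicate 2 had a −log10 q of 26.8 and 41 reads (29.4 to 55.6) at the top 24.0%. Untreated replicate 1 had 9.24 and 18 reads (10.7 to 28.4) at the top 51.4%, and untreated replicate 2 had 45.1 and 70 reads (54.6 to 88.4) at the top 15.4%. This region was also the untreated recurrent region of PDCD10, the cerebral cavernous malformation gene that lies head to head with SERPINI1. A weak region deep inside the gene, at 167809511 to 167809765, was in JQ1 replicate 2 alone with a −log10 q of 2.77 and 10 reads.

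Beyond the gene, 3 further regions were in replicate 2 lists only. At 61.4 kb from the span, untreated replicate 2 had a peak with a −log10 q of 7.15, and at 61.7 kb JQ1 replicate 2 had a peak with a −log10 q of 5.97. These intervals, 167886883 to 167887135 and 167887167 to 167887326, did not overlap and so counted as 2 regions. At 72.6 kb both replicate 2 lists had a peak, with a −log10 q of 11.7 and 20 reads for JQ1 and of 6.78 and 19 reads for untreated. The summits of these last 2 peaks were 1 base apart.

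Regions in both untreated lists were read against all such regions of the genome. Near the 4 genes there were 7, and 5 of them had no peak in JQ1 replicate 1, against 48.9% of 6365 untreated recurrent regions in all (95% Wilson interval 47.7 to 50.2). With each list shortened to its strongest peaks, as many as the shortest list holds, the share over all fell to 26.1%, and 3 untreated recurrent regions were left near the 4 genes. All 7 had a peak in JQ1 replicate 2, as did 96.2% of all. None of the 7 was missing from both JQ1 lists, against 3.52% of all. The 4 genes were chosen by this contrast, so nothing is read from their count. The share missing from JQ1 replicate 1 fell with strength in untreated replicate 1 when the regions were cut into 5 classes of near equal number, from 72.3% in the weakest class (−log10 q up to 5.63), 67% in the next (up to 8.4), 57.7% (up to 12.4) and 37.7% (up to 20.8) to 10.2% in the strongest. Of the 7, the region of SAT1 inside ACOT9 stood in the weakest class and that inside SERPINI1 in the middle class, and both were missing. In the class with 37.7% missing stood the upstream TXNIP region, the region beside CLU and the downstream SAT1 region, all missing, and the nearer SERPINI1 region, which was present. The farther SERPINI1 region stood in the strongest class and was present.

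**Figure D3:**
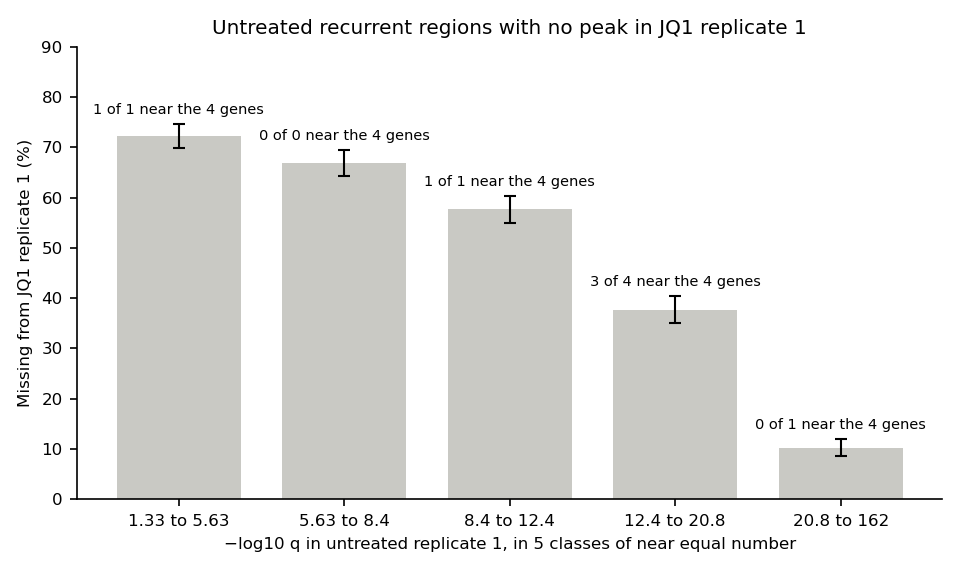
Share of untreated recurrent regions, those with a peak in both untreated lists, that had no peak in JQ1 replicate 1, by 5 classes of the −log10 q in untreated replicate 1. Bars are percentages of all such regions with 95% Wilson intervals, and the words above each bar count those near the 4 genes; the share falls to 10.2% in the strongest class, against 72.3% in the weakest, and over all classes it was 48.9%, or 26.1% with lists of equal length.

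Whether a gene had a JQ1 recurrent region depended on the window, on the overlap required for merging and on replicate 1. The length of the lists changed the untreated recurrent regions of TXNIP, CLU and SAT1, but whether any of the 4 had a JQ1 recurrent region stayed the same. Within 100 kb, TXNIP, CLU and SAT1 had a recurrent region without JQ1 and none with it, as had 36.6% of the 7216 genes with an untreated recurrent region. With lists of equal length none of the 4 genes had that pattern, since TXNIP, CLU and SAT1 had no untreated recurrent region left, and the share of all genes was 26.5%. Without replicate 1, where a single list per treatment is left, all 4 genes had a region with JQ1 and without it, and the share of all genes was 5.25%. SERPINI1 had both kinds and, like 21% of protein-coding genes, a region common to all 4 lists. The farthest regions inside the limit were those of SAT1 at 87.6 kb and of SERPINI1 at 75.7 and 74.0 kb. The first outside it were those of SERPINI1 at 112 kb, CLU at 126 kb and SAT1 at 127 kb. A region in all 4 lists lay 145 kb from SAT1, inside CXorf58 at 23931194 to 23931626, with −log10 q values of 8.58 and 39.8 with JQ1 and of 13.5 and 50.97 without. CLU had a region in every list except JQ1 replicate 1 at 126 kb, inside CCDC25, with −log10 q values of 21.9 in JQ1 replicate 2 and of 8.04 and 20.5 in untreated replicates 1 and 2.

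Other genes known to be raised by BET inhibitors did not share one pattern. Of 12 such genes, without the 4 described above, 3 had a JQ1 recurrent region within 100 kb and 3 an untreated recurrent one, against 27% and 36% of all protein-coding genes. The median number of regions was 1 on this list and 2 over all genes. H2BC12, a histone H2B gene, had 3 untreated recurrent regions and 1 JQ1 recurrent region. ZMYND8, which codes for a reader of acetylated histones, had 1 of each kind, common to all 4 lists. CDKN1A, the gene of the cell cycle inhibitor p21, had a single region in every list except JQ1 replicate 1. H1-2, a linker histone gene, had a JQ1 recurrent region and no untreated recurrent one. It had 3 peaks in untreated replicate 2 and none in untreated replicate 1. HEXIM1, which holds the elongation factor P-TEFb inactive, had a single peak, in JQ1 replicate 2.

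Genes listed for a link with the 4 by function, family or position were also counted. The counts stand beside 27% of all protein-coding genes with a JQ1 recurrent region and 36% with an untreated recurrent one. No test was run on them. Among 17 genes of the thioredoxin system and the arrestin-domain family of TXNIP, 5 had a JQ1 recurrent region and 7 an untreated recurrent one, PRDX4 with the region inside ACOT9 among the 7. The 5 were TXN, TXNRD1, PRDX1, PRDX5 and MLXIPL, the last being the gene of a glucose-sensing factor that activates TXNIP. Among 18 polyamine genes the numbers were 4 and 7. ODC1, which codes for the enzyme that starts polyamine synthesis, had 2 untreated recurrent regions and no JQ1 recurrent one. The list of JQ1 replicate 2 still held 2 peaks near ODC1, and only the short list of JQ1 replicate 1 lacked any. Of all genes with an untreated recurrent region, 36.6% likewise had no JQ1 recurrent one. AMD1, the gene of S-adenosylmethionine decarboxylase, had 1 JQ1 recurrent region and 2 untreated ones. Among 16 genes listed with clusterin and neuroserpin the numbers were 5 and 8. PDCD10, a neighbour of SERPINI1 in the genome, was among the 8 only through the region inside SERPINI1, already counted for SERPINI1. PLAT, which codes for tissue plasminogen activator, the protease that neuroserpin inhibits, had 1 JQ1 recurrent region and 2 untreated ones. LRP2, a clusterin receptor gene, had 1 of each kind. All 8 prostate luminal genes, such as KLK3 and TMPRSS2, had an untreated recurrent region and 7 a JQ1 recurrent one. Their median number of regions was 7, against 2 over all protein-coding genes. KLK2 and KLK3 had the same counts in every list, so the same regions may be counted for both. Peaks near such genes do not measure their expression, so the identity of the cells was not checked by it.

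**Figure D4:**
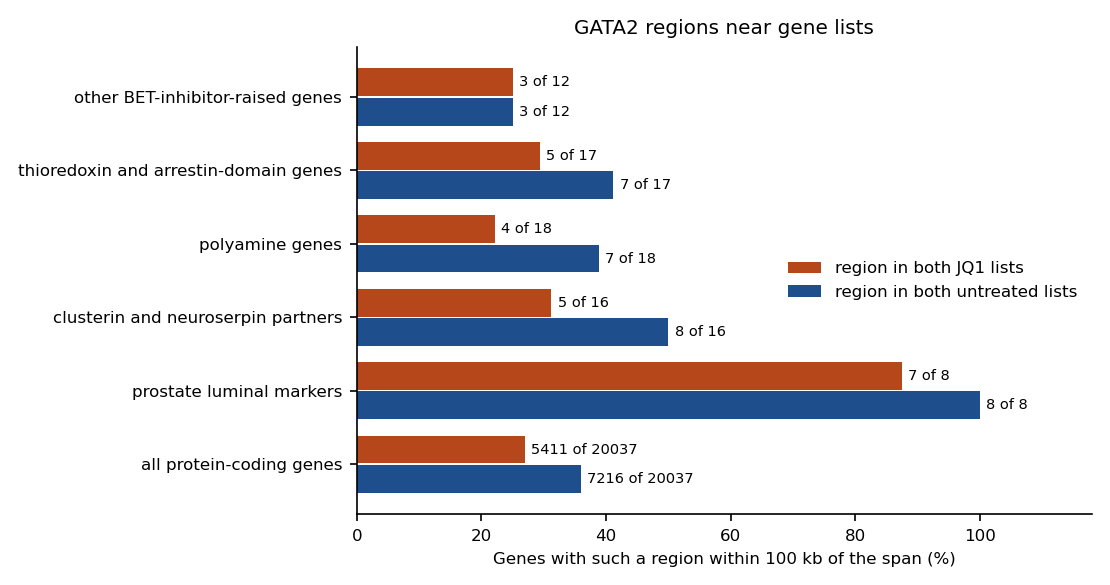
Percentage of genes in each list with a GATA2 region within 100 kb in both JQ1 lists (upper bar of each pair) and in both untreated lists (lower bar), with the counts beside the bars. The list of genes raised by BET inhibitors, without the 4 genes chosen here, has 3 of 12 and 3 of 12, and all protein-coding genes have 5411 and 7216 of 20037.

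The genes with the most similar binding were found by the best rank of any peak within 100 kb in each of the 4 lists. Likeness was the largest of the 4 differences in rank, in percentage points, and genes sharing a region with the member were left out. Ties were broken by the order of the symbols, so other genes at the same value may go unnamed. TXNIP was closest to AUH, GSTA1 and GSTA3, with largest differences of 2.80, 3.34 and 3.34 points. CLU was closest to ABCB8, ASIC3 and ATG9B, which lie close together, each at 2.27 points. SAT1 was closest to ATM, at 2.18 points, and to ACTR3C and ATP6V0E2, both at 2.29 points. A list with no peak within 100 kb counted as a rank of 100. Each of these 9 genes, like TXNIP, CLU and SAT1, had no peak there in JQ1 replicate 1. That follows from the matching and is not a separate result. SERPINI1 was closest to DMD, at 1.45 points, whose best peaks stood at the top 8.46% and 0.873% with JQ1 and at the top 16% and 1.79% without. IQCN and JUND followed, both at 1.93 points. The 4 ranks were the same within the pairs GSTA1 and GSTA3, ABCB8 and ATG9B, ACTR3C and ATP6V0E2, and IQCN and JUND. The comparison rests on 4 lists and over 20026 to 20034 genes a member, so that close ranks are a description.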

How the data were processed

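GATA2 binding had been measured by chromatin immunoprecipitation and sequencing in 4 precipitates, each with its own peak list. The submitters' processing notes name MACS2, Picard and Bowtie2 and the build hg38, with no versions. The deposited score, a whole number from the caller, played no part here. The deposited fold is a linear ratio at the summit over local background. The deposited −log10 p-values and −log10 q-values belong to each list.

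Lines on chromosomes 1 to 22, X and Y were used, which left out 10 lines of JQ1 replicate 1 and 8 of untreated replicate 2. Lines sharing 1 bp or more formed a region, which was recurrent if both lists of a treatment had it. Where a list had several lines in a region, the one with the best q was given. Distances were measured from the summit to the RefSeq gene span (GRCh38.p14), which gives no exons.

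Reads over a summit were solved from the deposited fold, which equals reads over background with 1 added to each, and from the Poisson −log10 p. Within 0.001 on the −log10 p scale, 100% of lines with a −log10 p under 250 gave whole reads. In untreated replicate 2 this needed a scale of 0.6863 on the precipitate, and 99.85% of its lines had a single solution, as had every line near the 4 genes. Exact Poisson and 95% Wilson intervals cover counting error only, since they are computed from counts without the spread between replicates. Reads also lack molecular identifiers. Merging and solving were tested on simulated data.

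The members and gene lists were chosen with earlier results of these data known. Named genes were the 4 members, the coding gene holding or nearest to each region, BET-list genes with an untreated recurrent region, and the 3 genes most like each member. H1-2, HEXIM1 and the other list genes were named after their values were seen. Python 3.11.15, pandas 2.3.3, numpy 2.4.6, scipy 1.17.1 and matplotlib 3.10.9 were used.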

Additional observations from a re-analysis of the deposited data

How the results depend on the processing

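With a window of 50 kb the 4 genes had 9 regions, of which 0 were JQ1 recurrent, and 40% of genes with an untreated recurrent region lacked a JQ1 recurrent one. With 200 kb there were 24 regions, 5 of them JQ1 recurrent, and the share of genes was 30.6%. A window does not enter the share of regions missing from JQ1 replicate 1. At a q of 1e-05 or less the share of genes was 40.9% and that of regions 51.2%. A reciprocal overlap of 50% left 0 JQ1 recurrent regions, since the narrow peaks of JQ1 replicate 1 cover less than that share of the wide ones, and the share of genes was 38%. With lists of equal length there were 6 regions, 3 of them untreated recurrent, while 26.5% of genes and 26.1% of regions met the definitions. Without replicate 1 or without replicate 2, regions near the 4 genes numbered 7 to 15, untreated regions 7 to 11 and JQ1 regions 2 to 14, and the share of genes ran from 5.25% to 37.9%. The share of regions missing from JQ1 replicate 1 was 51.4% without replicate 2, and had no value without replicate 1. Of the 4 genes, 3 had an untreated and no JQ1 recurrent region within 100 kb. That number was 4 at 50 kb and with the reciprocal overlap, 2 at 200 kb, and 0 without replicate 1 and with lists of equal length. The other settings admit fewer or more peaks, while the reciprocal overlap joins the same peaks more strictly. The cause of these shifts was not tested beyond that. No paired analysis was possible because the results are counts and values that come from no test, and values are instead given side by side within each replicate number. Depth limits the weakest peaks most: 10 reads over a summit carry an exact 95% interval of 4.80 to 18.4.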
